A study of Mus musculus with 42 samples.

Results

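Low-risk papillomas of mouse skin were compared with normal skin. The samples were chosen by their array titles alone, as 10 arrays of low-risk papillomas and 6 arrays of normal skin, or 16 of the 42 arrays of the study. They stood for 15 replicates, because papilloma 1 was hybridised on 2 arrays, the second with the dyes exchanged, and these were averaged. The title of that second array calls it low-risk 3, while its source name ties it to papilloma 1, and the source name of papilloma 10 reads low-risk 3. The papillomas came from female Sencar mice, a stock bred for sensitivity to skin carcinogens. Tumours were initiated at 7 to 8 weeks of age with the carcinogen DMBA and promoted with the phorbol ester TPA. The normal skins came from untreated adult animals whose strain and sex the labels do not give, so that strain, sex and exposure to the agents cannot be told apart from the presence of a tumour. Papillomas 2 and 8 share an animal code and were counted as separate replicates. The SEs and p-values rest on a spread pooled over these samples and the other labelled tumours named below, not on the 2 compared groups alone. The small number of arrays limits the precision. The labels do not say how risk was assigned. Each sample was whole tissue, hybridised against a universal mouse reference RNA on a 2-colour oligonucleotide array. A value is the log2 ratio of sample over reference, and that direction is likely rather than stated. The other labelled arrays of the same design, 10 high-risk papillomas and 6 squamous cell carcinomas, also from female Sencar mice given DMBA and TPA, shared the estimate of the spread. High-risk papillomas 1 and 2 share an animal code, as do 3 and 5, and 6 and 10, so these replicates are not all from separate animals.

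In this model a single dose of DMBA leaves keratinocytes with a mutation, most often in Hras, and repeated TPA makes the initiated cells grow out as papillomas, which are benign and still cornify. Epidermis that is wounded, inflamed or treated with TPA switches to an activated programme, with alarmins such as S100a8 and S100a9, small proline-rich envelope proteins and the keratins of hyperproliferation. Normal mouse skin holds hair follicles, sebaceous glands, fat and a thin muscle layer beside the epidermis. In whole tissue, fewer cells of a type and less RNA per cell cannot be told apart.

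In these data the alarmin genes S100a8 and S100a9, most of the small proline-rich genes, interleukin 1 beta, arginase 1 and several envelope and kallikrein genes were higher in the papillomas. Single genes of hair (Krt34, Krt33a and Krt71), Krt15 of the follicle bulge, the actins Acta1 and Acta2 and Rtkn2 were lower, while the hair follicle and smooth muscle lists had medians of -0.03 and -0.26. Of 18904 probes tested, 1427 (7.55%) passed an adjusted p of 0.05 in limma, 744 (3.94%) higher and 683 (3.61%) lower in the papillomas, and 592 and 499 of these had a gene symbol. In 225 probes (1.19%) the lowest papilloma lay above the highest skin, and in 119 (0.629%) the highest papilloma lay below the lowest skin. The median difference over all probes was -0.02. Of the higher genes 33.2% had a mean in skin above the reference, against 80.1% of the lower genes and 50.1% of all probes. The skin mean enters the difference by which these genes were called, which favours such a contrast. The plot of size against adjusted p shows the called genes on both sides.

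**Figure D1:**
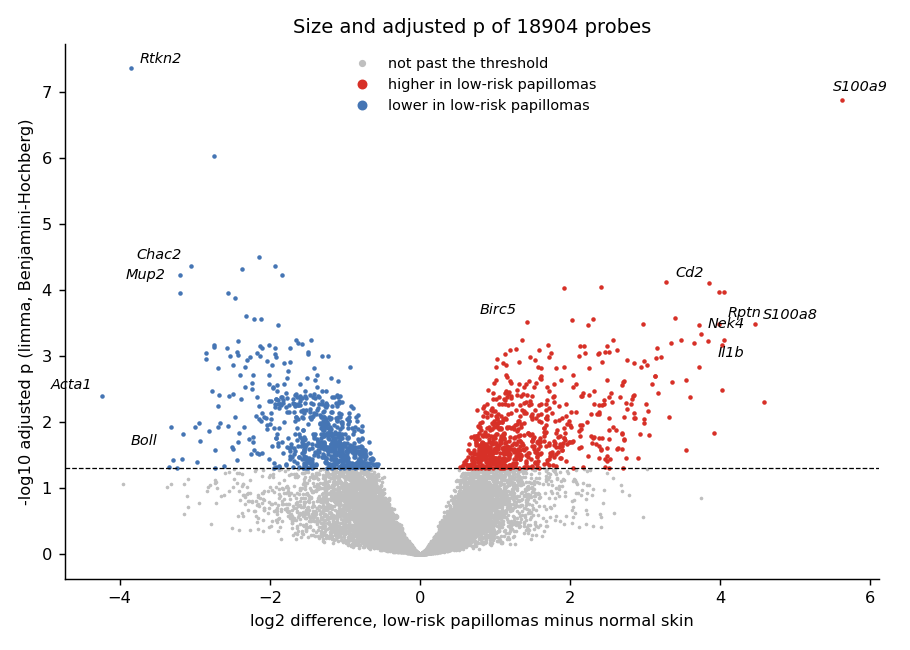
Each point is 1 of 18904 probes, with the log2 difference of low-risk papillomas minus normal skin on the horizontal axis and -log10 of the adjusted p on the vertical axis. The dashed line is the threshold of 0.05, above which 744 probes lie to the right and 683 to the left, with S100a9 at the far right and Rtkn2 at the top on the left.

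Several arrays stood apart, and they bear on all that follows. Normal skin 1 correlated at r = 0.984 with carcinoma 6 across 16718 probes, with a median distance of 0.065 against 0.177 for the next closest pair of arrays. Among 1377 genes called without it, normal skin 1 was nearer to the papilloma mean in 57.4%, while the other skins, each scored on genes called without that skin, were so in 5.57% to 27.7%. Without normal skin 1, 1580 probes were called, 806 higher and 774 lower, and 1300 of the 1427 remained. Both arrays of papilloma 1 correlated at r = 0.306 over 19899 probes, against a median of 0.539 between different papillomas. Without its dye-swapped array 1011 probes were called, and without its other array 1725. The deposited arrays were grouped by which probes were empty into 5 sets, a number that was chosen and not varied. A set with no low-risk papilloma held 4 normal skins, and a set with no skin held 6 papillomas. In another set 3 papillomas lay with normal skin 2. Whether the sets reflect how the arrays were run or the tissue on them was not tested. With the set as a block, 7 probes were called, 2 higher and 5 lower, and 1244 had an unadjusted p under 0.05. Of the 1427 genes 98.7% had the same direction with the block, at a median size of 0.90 against 1.27 without it. They were called on the same arrays, which favours a kept direction. With the block and without normal skin 1, 107 were called. Of the 35 gene lists described below, the activated epidermis and neutrophil lists each kept S100a9 as their 1 called gene with the block, and the other lists kept none. Array set and group cannot be told apart for most replicates, since the differences rest largely on skins and papillomas of different sets.

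The spread was also unequal. The SD over the probes of an array was 1.04 to 1.95 in the papillomas and 0.785 to 1.07 in the skins, and in 86.3% of 7878 probes measured in all replicates the papillomas varied more among themselves than the skins. After the arrays were scaled to the same spread, 1417 probes were called and 990 of the 1427 remained. Of 100 named genes past the threshold 74 kept the call after scaling. Those that lost it were Fmo5, Rhoh, Klk6, Arg1, Ccdc181, Umod, Jup, Lce3c, Fabp4, Actg2, Col5a2, Pecam1, Alas2, Hbegf, Ier3, Oaz1, Atp5pb, Rpl27a, Rpl24, B2m, Igtp, Sod1, Txn1, Gsta1, Gsta2 and Wnt10b.

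The activated epidermis list, chosen with earlier results of these data known, held 28 tested genes, of which 15 (53.6%) rose, none fell and all 28 had a positive difference. Its median difference was 2.21, against -0.02 for all probes, and it was 1.50 with the array set as a block and 1.46 after scaling. The list mean of a sample was 2.05 to 4.31 in the papillomas. It was 0.39 to 0.93 in 5 skins and 2.06 in normal skin 1.

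S100a8 and S100a9 encode the 2 subunits of calprotectin, an alarmin of neutrophils and activated keratinocytes. S100a8 was 4.91, 5.04, 5.47, 4.52, 2.88, 5.07, 5.54, 6.97 and 5.20 in papillomas 1, 2, 4, 5, 6, 7, 8, 9 and 10. In normal skins 1 to 6 it was 3.71, 0.34, -0.28, 0.43, -0.01 and -0.58. Papilloma 6 was the lowest tumour and lay below normal skin 1, while the other skins stayed below the lowest papilloma. The difference was 4.47 ± 0.71 (SE; adjusted p = 0.000332), and 5.09 without normal skin 1. S100a9 was 4.13, 3.77, 5.25, 3.57, 2.59, 5.11, 5.08, 4.81 and 5.25 in the papillomas in the same order. It was 0.21, -1.09, -1.27, -2.05 and -1.89 in skins 2 to 6, with no value in normal skin 1. The groups did not overlap, and the difference of 5.62 ± 0.47 (adjusted p = 1.34e-07) was the largest rise of any probe past the threshold. With the array set as a block it was 4.48 (adjusted p = 0.0489), and the other of the 2 probes called higher in that fit, without a gene symbol, stood at 5.06 with the block and at 0.02 (adjusted p = 0.987) without it. Other keratinocyte products of inflamed epidermis rose too, the antimicrobial peptide Defb3 by 4.58 ± 0.98, the stefin Stfa1 by 2.99, the serpin Serpinb3a by 2.93 and the interleukin 36 gene Il1f6 by 2.16. The hyperproliferation keratins Krt6a, Krt6b and Krt16 differed by 1.17, 0.64 and 0.43 and did not pass (adjusted p = 0.310, 0.553 and 0.718).

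**Figure D2:**
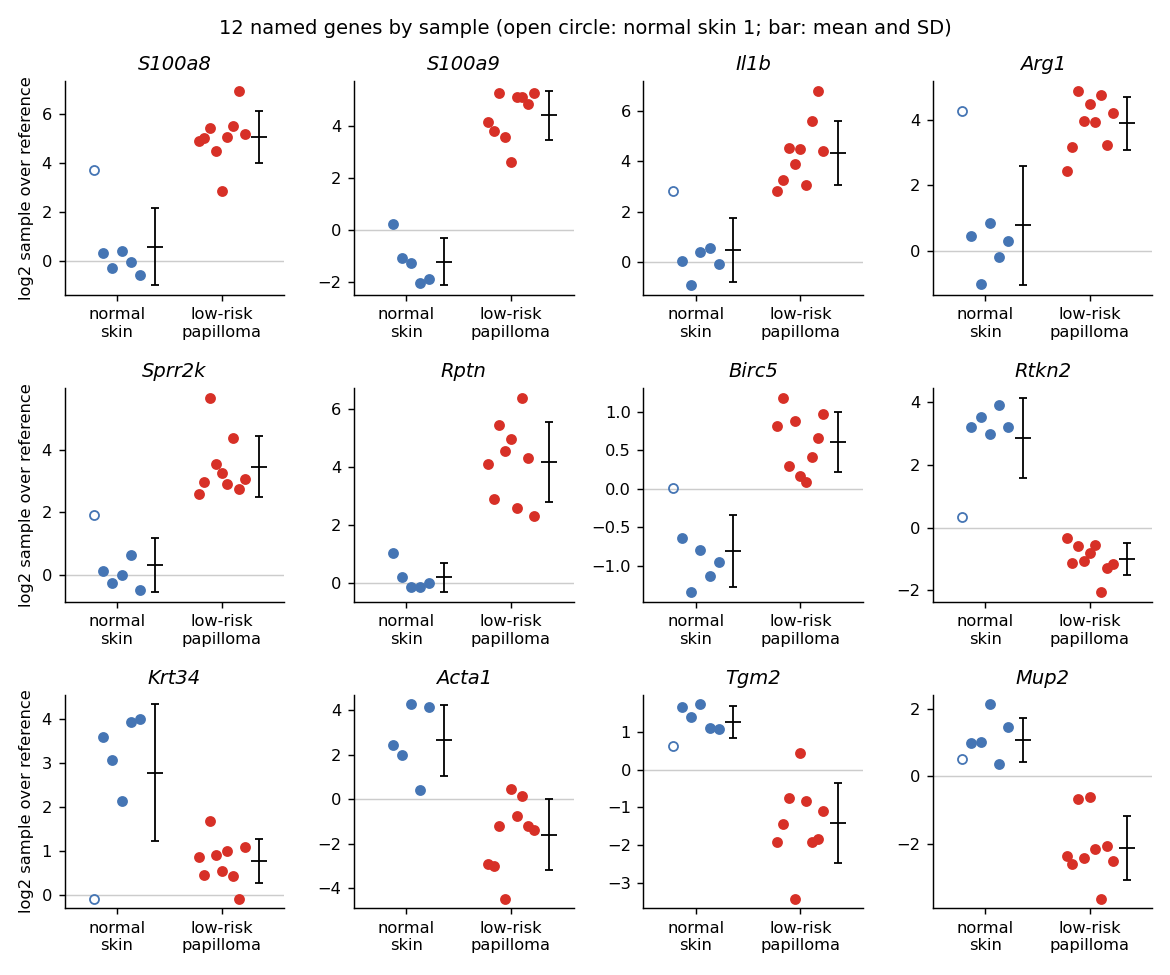
Log2 sample over reference for 12 named genes, 1 point per replicate, with normal skin 1 as an open circle and the mean and SD of each group as a bar. S100a9, Sprr2k, Rptn and Birc5, which rose, and Rtkn2, Mup2 and Tgm2, which fell, do not overlap between groups. Normal skin 1 lies at or near the papillomas in S100a8, Il1b, Arg1 and Krt34.

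The small proline-rich genes encode short proteins that are crosslinked into the cornified envelope and lie side by side on chromosome 3. Of 13 tested, 9 rose, none fell, and the median difference was 2.49 (1.81 with the array set as a block, 1.91 after scaling, 2.72 without normal skin 1). Among all probes 3.94% rose and 3.61% fell. Sprr2k ran from -0.49 through a median of 0.05 to 1.90 in the skins and from 2.59 through 3.08 to 5.68 in the papillomas, with no overlap (3.15 ± 0.55, adjusted p = 0.000753). Sprr2h, with 5 skins measured, ran from 0.16 through 0.40 to 1.23 and in the papillomas from 2.44 through 4.60 to 6.96, also apart (3.91 ± 0.99, adjusted p = 0.0147). Sprr1b was apart as well, at 0.53 to 1.65 in 5 skins and 2.59 to 4.91 in the papillomas. Sprr2i, Sprr2g and Sprr2b rose by 2.30, 2.49 and 2.25 with partial overlap. Sprr2a1, Sprr2e, Sprr3 and Sprr1a differed by 0.80, 0.69, 1.73 and 1.83 and did not pass. Members of the Sprr2 cluster are close in sequence, and their probes may share transcripts, so the values of single members are uncertain.

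Promoters of the Sprr genes are known to bind AP-1, the factor that TPA activates through protein kinase C. In RefSeq (GRCm38.p6), 11 of the 13 genes had a promoter, and within 250 bases before the start the AP-1 motif TGANTCA, which reads the same on both strands, was found in 9 of the 11. It was found in 6.75% of all 32851 RefSeq promoters over the same length. The Sprr2 genes are close in sequence, so the matches in them are not independent of each other. Outside Sprr2, Sprr1b held 1 match and rose, while Sprr1a held 2 and did not pass. The Sprr2 windows below are shown because in 7 genes a match, in capitals, lay at nearly the same distance, 193 to 198 bases before the start, and because 6 of them rose in papillomas while Sprr2e did not pass. Sprr2k holds a second match, at 182 bases, also in capitals. Each is the forward strand, 5′ to 3′, in the order in which the genes lie at chr3:92316485-92316544, chr3:92338922-92338981, chr3:92351925-92351984, chr3:92364965-92365024, chr3:92385462-92385521, chr3:92407773-92407832 and chr3:92432361-92432420.
Sprr2b: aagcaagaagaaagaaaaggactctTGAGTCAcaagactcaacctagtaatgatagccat
Sprr2d: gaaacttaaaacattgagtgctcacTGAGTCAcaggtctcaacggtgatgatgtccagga
Sprr2e: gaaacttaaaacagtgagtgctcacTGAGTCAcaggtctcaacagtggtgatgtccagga
Sprr2f: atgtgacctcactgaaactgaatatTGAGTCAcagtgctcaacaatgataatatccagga
Sprr2h: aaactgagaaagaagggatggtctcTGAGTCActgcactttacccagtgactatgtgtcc
Sprr2i: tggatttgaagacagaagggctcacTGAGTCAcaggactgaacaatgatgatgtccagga
Sprr2k: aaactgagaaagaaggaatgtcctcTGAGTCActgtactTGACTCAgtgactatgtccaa
A match is a string of letters and says nothing of binding in these samples. The log2 differences of these genes, from Sprr2b to Sprr2k, were 2.25, 2.87, 0.69, 2.82, 3.91, 2.30 and 3.15.

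The order of genes on chromosome 3 shows how uneven the epidermal differentiation complex was. Between S100a1 and S100a11 in the RefSeq gene order, a span chosen after the values were seen, 46 genes were tested, of which 15 rose and 1 fell, with a median of 1.00 (0.68 with the array set as a block). Among all probes 3.94% rose and 3.61% fell. The late cornified envelope genes, which serve the last steps of envelope assembly, had 2 of 11 higher and a median of 1.04, which was 0.19 after scaling. The S100 genes had S100a8 and S100a9 as the 2 of 11 that rose, and S100a3 and S100a1 differed by -1.35 and -1.08 without passing. Loricrin (Lor) and involucrin (Ivl), the classical envelope precursors, differed by 0.04 and 0.27. Lelp1 was the gene of the complex that fell (-1.87 ± 0.40, adjusted p = 0.00614; 8 papillomas and 4 skins measured).

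**Figure D3:**
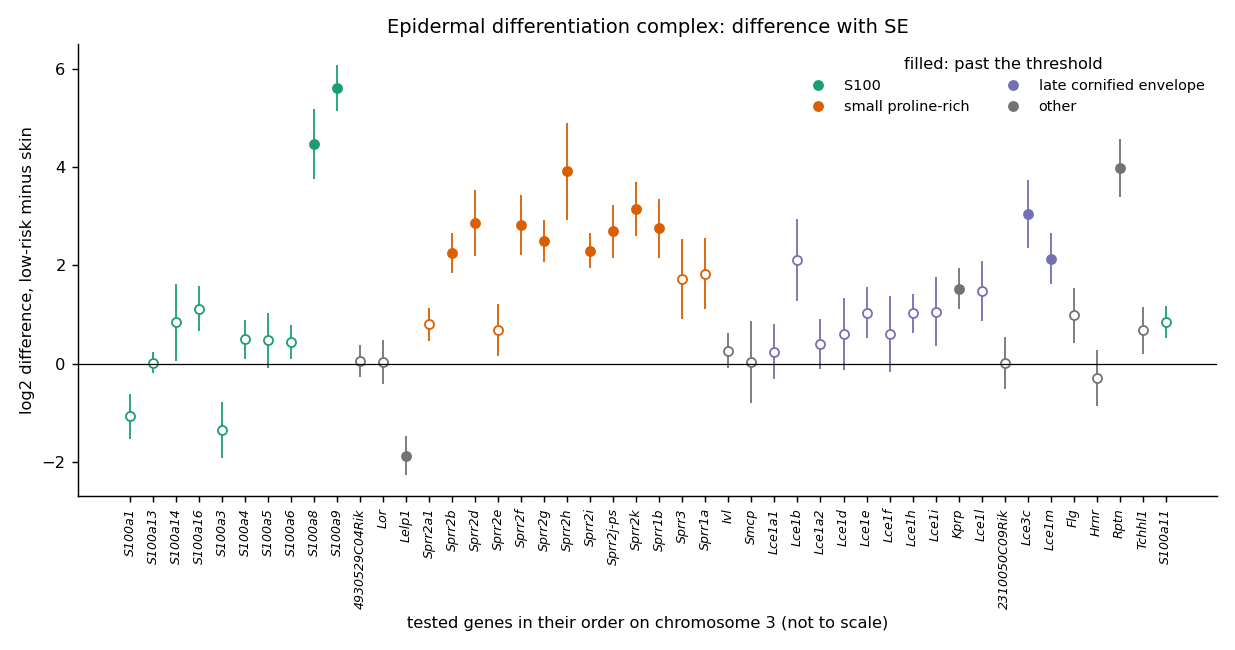
Log2 difference of low-risk papillomas minus normal skin with its SE for 46 tested genes in their order on chromosome 3, coloured by family and filled where the adjusted p was under 0.05. The small proline-rich genes form a block with 9 of 13 filled. S100a8 and S100a9 are filled as well and are separated from that block by genes that include Lor and Lelp1, which fell. Lor and Ivl lie near 0.

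The cornified envelope and barrier list had 33 tested genes, of which 9 (27.3%) rose and none fell, with a median of 1.04 (0.62 with the array set as a block, 0.45 after scaling). After scaling 2 of the 33 passed, and Lce3c and Klk6 did not (adjusted p = 0.134 and 0.116). Rptn, repetin, a fused S100 protein of the envelope, ran from -0.14 through 0.01 to 1.05 in 5 skins and from 2.31 through 4.33 to 6.41 in the papillomas, with no overlap (3.98 ± 0.58, adjusted p = 0.000324). Lce3c, a late cornified envelope gene of wounded skin, lay between -0.10 and 0.39 in 5 skins and at 4.37 in normal skin 1, against 2.77 to 6.04 in the papillomas (3.04 ± 0.69, adjusted p = 0.00673). Klk6 and Klk8 are kallikrein proteases of desquamation. Klk6 ran from -0.77 through 1.44 to 3.63 in skin and from 2.88 through 5.09 to 7.04 in papillomas, with overlap (3.32 ± 0.78, adjusted p = 0.00846). Klk8 rose by 2.85 ± 0.66 and the kallikrein inhibitor Spink5 by 2.72, while Klk7 differed by 1.45 and Klk10 by -1.58 without passing. Transglutaminase 1 (Tgm1), which crosslinks the envelope, rose by 1.53 (adjusted p = 0.0401). Filaggrin (Flg) and hornerin (Hrnr) differed by 0.99 and -0.29 and did not pass.

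Among 18 suprabasal keratin and desmosome genes, 1 (5.56%) rose, against 3.94% of all probes. It was plakoglobin (Jup), at -0.34 to 2.17 in skin and 1.51 to 3.23 in 8 papillomas (1.27 ± 0.39, adjusted p = 0.0459). The median of this list was 0.97, but 0.18 with the array set as a block and 0.24 after scaling. Keratins 1 and 10 of the spinous layer differed by -0.05 and -0.12. Of 11 basal keratin and adhesion genes, 2 (18.2%) fell, against 3.61% of all probes, and the median was 0.13, which turned to -0.26 after scaling. Krt15, a keratin of basal cells and the hair bulge, was highest in skin (-0.25, 2.01 and 3.07 as lowest, median and highest) and lower in papillomas (-1.72, -0.25 and 0.68), with overlap (-2.22 ± 0.59, adjusted p = 0.0199). The laminin chain Lama3 fell by 2.24 ± 0.46 without overlap, though its 3 probes ran from -2.24 to 0.46 and their mean was -0.44 (adjusted p = 0.185). Krt5 differed by 0.69.

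Of 23 hair follicle genes 4 (17.4%) fell and none rose, against 3.61% of all probes, while 10 had a positive difference and the list median was -0.03. After scaling 7 passed in either direction. The hair keratin Krt34 was 3.59, 3.06, 2.14, 3.92 and 3.99 in normal skins 2 to 6 and -0.07 in normal skin 1. In the papillomas it ran from -0.08 through 0.86 to 1.68, below those 5 skins (-2.0 ± 0.49, adjusted p = 0.0106). Krt33a and the inner root sheath keratin Krt71 fell by 1.85 ± 0.39 and 2.08 ± 0.47, each with overlap, and the keratin-associated gene Krtap14 fell by 1.06 ± 0.29. Other members differed widely, from -1.49 in Krtap8-1 to 1.85 in the hair factor Foxn1, and did not pass. The list mean of a skin ranged from 0.30 to 2.13, wider than the 0.46 to 1.59 of the papillomas.

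Of 21 sebaceous and fatty acid synthesis genes 2 (9.52%) fell, or 6 passed in either direction after scaling. The 2 were the desaturase Scd1 (-1.36 ± 0.37, adjusted p = 0.0229) and the elongase Elovl5. Elovl5 ran from 0.44 through 0.51 to 1.23 in skin and from -1.32 through -0.53 to 0.12 in papillomas, without overlap (-1.17 ± 0.26, adjusted p = 0.00574). Fatty acid synthase (Fasn) differed by 1.41 and did not pass. Of 17 adipocyte genes 3 (17.6%) fell and 2 (11.8%) rose: Apoe, lipoprotein lipase (Lpl) and Retn fell by 1.99, 1.07 and 0.74, and the fatty acid binding gene Fabp4 rose by 2.38 ± 0.62 (adjusted p = 0.0174). The fifth, the lipase gene Lipe, is uncertain, since its other probe gave -1.07 against 0.75. Adiponectin (Adipoq), a hormone of fat cells, differed by 0.31, so fat cell genes did not move together.

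Acta1, the actin of skeletal muscle, ran from 0.41 through 2.44 to 4.27 in 5 skins and from -4.47 through -1.22 to 0.46 in papillomas, with a small overlap (-4.24 ± 0.88, adjusted p = 0.00404). Troponin C (Tnnc2) fell by 2.25 ± 0.63, measured in 4 papillomas. Titin (Ttn) was called higher, but its 4 probes ran from -3.24 to 1.36. Of 34 skeletal muscle genes 2 (5.88%) fell and 1 (2.94%) rose, near the shares of all probes, and the median was -0.35, with creatine kinase (Ckm) at -0.47. Of 12 smooth muscle and pericyte genes 3 (25%) fell and none rose, and 4 had a positive difference. Acta2, smooth muscle actin, ran from -1.40 through 0.42 to 1.69 in skin and from -3.98 through -2.30 to -0.68 in papillomas (-2.67 ± 0.56, adjusted p = 0.00390). The gut-type actin Actg2 fell by 2.49 ± 0.69, and the myosin kinase Mylk fell by 0.85 ± 0.20 with no overlap. The list median of -0.26 turned to 0.03 after scaling.

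Interleukin 1 beta (Il1b), the cytokine of early skin inflammation, was 2.82, 3.27, 4.54, 3.90, 4.47, 3.07, 5.59, 6.79 and 4.42 in the papillomas in the order given for S100a8. In normal skins 1 to 6 it was 2.83, 0.05, -0.92, 0.41, 0.56 and -0.06. Papilloma 1 and normal skin 1 were at the same level, and the other skins lay below all papillomas (3.84 ± 0.63, adjusted p = 0.000593). Arginase 1 (Arg1), made by alternatively activated macrophages and by activated keratinocytes, was 0.45, -1.03, 0.85, -0.18 and 0.29 in skins 2 to 6 and 4.27 in normal skin 1. The papillomas ran from 2.44 through 3.98 to 4.90 (3.13 ± 0.60, adjusted p = 0.00201; 3.83 without normal skin 1). The monocyte chemokine Ccl2 rose by 1.87 ± 0.50 and the Fc receptor gamma chain Fcer1g by 2.90 ± 0.86. With Arg1 those are the 3 of 30 macrophage and monocyte genes (10.0%) that rose. The macrophage markers Adgre1, Cd163 and C1qb differed by -1.40, -0.38 and -0.92 without passing, and the list median was -0.18. Of 21 neutrophil genes 4 (19.0%) rose and 1 fell; besides the calprotectin genes and Il1b the platelet chemokine gene Ppbp rose by 0.90, and the formyl peptide receptor Fpr2 fell by 1.52. The neutrophil granule genes Elane, Mpo and Camp differed by -0.26, -0.10 and -0.15, and Ltf by -2.19, none past the threshold.

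Lymphocyte genes pointed in different directions. Cd2, an adhesion receptor of T cells, ran from -1.83 through -1.14 to 0.72 in skin and from 1.60 through 2.49 to 3.64 in papillomas, without overlap (3.28 ± 0.45, adjusted p = 7.60e-05; 1.54 with the array set as a block). Cd3e of the T cell receptor complex fell by 1.04 ± 0.23, from 0.24 to 0.86 in skin to -1.06 to 0.66 in papillomas, and Cd8a fell by 1.21 ± 0.28. Cd3d and Cd3g differed by 0.28 and 0.53, so markers of the same cells were not concordant. No B cell or plasma cell gene passed among 13. Ciita, the master regulator of MHC class II, fell by 0.92 ± 0.21 (adjusted p = 0.00570), as did the class II chaperone H2-DMb1, while Cd74 and H2-Ab1 differed by -0.55 and -0.38. Of 17 Langerhans, dendritic and class II genes these 2 (11.8%) fell, against 3.61% of all probes, and 3 had a positive difference. Every papilloma had a lower mean of that list (-1.01 to -0.32) than every skin (-0.30 to -0.03), and the median of -0.38 was -0.15 after scaling. Mast cell genes were also mixed: Cpa3, Fcer1a and Tpsb2 rose by 0.68, 1.33 and 1.05, and the transcription factor Gata2 fell by 1.57 ± 0.36. The tryptase Tpsb2 did not overlap between the 7 papillomas and 5 skins in which it was measured, and the proteases Mcpt4 and Cma1 differed by -0.07 and 0.21.

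**Figure D4:**
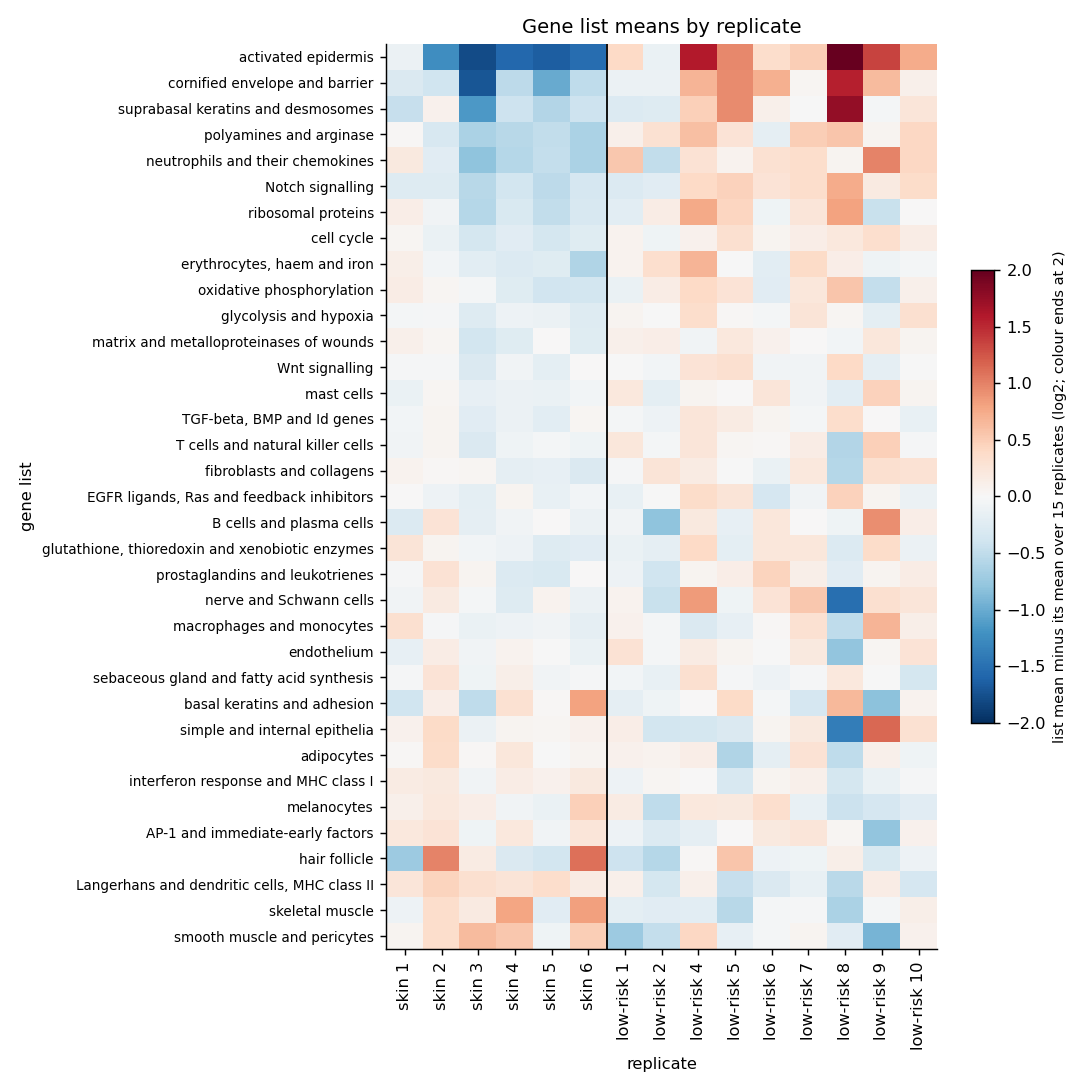
Mean log2 value of each of 35 gene lists in each replicate, minus the mean of that list over the 15 replicates, with normal skins to the left of the line and low-risk papillomas to the right. The activated epidermis list is highest in papilloma 8 and lowest in normal skin 3, and normal skin 1 is nearest to the papillomas among the skins in that list.

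Of 34 fibroblast and collagen genes 1 (2.94%) rose, the collagen chain Col5a2 (1.50 ± 0.47, adjusted p = 0.0477), and the major chains Col1a1 and Col3a1 differed by 0.35 and -0.13. Of all probes 3.94% were higher and 3.61% lower, so 1 called gene in a list of this size is near the general share. Of 21 wound matrix and protease genes 2 (9.52%) rose, and 5 passed in either direction after scaling. Mmp3, stromelysin 1, ran from -1.37 through -0.50 to 0.72 in skin and from 0.25 through 1.57 to 2.35 in papillomas (1.77 ± 0.38, adjusted p = 0.00420). The urokinase receptor Plaur rose by 0.89 ± 0.24, and Mmp9 differed by 1.25 (adjusted p = 0.0530). Pecam1 fell by 1.07 ± 0.34 as 1 of 17 endothelial genes (5.88%), while endoglin (Eng) differed by 1.18. The melanocyte factor Mitf fell by 1.65, but its 4 probes ran from -1.65 to 0.81. Of 7 nerve and Schwann cell genes Cnp alone (14.3%) rose, by 1.07 ± 0.32. No gene of 13 markers of simple and internal epithelia passed, with Krt18 at 1.12 and Krt8 at -2.10, where papilloma 8 alone stood at -8.58. Of 14 erythrocyte, haem and iron genes 3 (21.4%) rose, with a list median of 0.11: globin Hba-a1, the haem synthesis gene Alas2 and Hamp, hepcidin, the iron hormone of liver. Hamp ran from 0.75 through 0.88 to 1.22 in skin and from 2.35 through 4.56 to 5.77 in papillomas, apart (3.21 ± 0.58, adjusted p = 0.00103; 1.51 with the array set as a block).

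Of 47 cell cycle genes 4 (8.51%) rose, 1 fell and 35 had a positive difference, with a median of 0.37 (0.29 with the array set as a block and 0.29 after scaling). Birc5, survivin of the mitotic spindle, ran from -1.34 through -0.87 to 0.01 in skin and from 0.09 through 0.67 to 1.19 in papillomas, apart (1.42 ± 0.22, adjusted p = 0.000301). The replication helicase subunits Mcm4 and Mcm7 rose by 2.72 ± 0.62 and 0.98 ± 0.20, and the anaphase ubiquitin enzyme Ube2c by 0.94. The replication clamp Pcna fell by 1.18 ± 0.29, and Mki67 differed by 1.03 (adjusted p = 0.190).

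Of 22 genes of the EGF receptor and Ras pathway 1 (4.55%) rose, near the 3.94% of all probes. It was the ligand Hbegf, from -0.45 to 0.54 in skin to 0.73 to 4.05 in papillomas, without overlap (1.73 ± 0.51, adjusted p = 0.0323). With the array set as a block its difference was 0.04. Ereg differed by 1.50 and Egfr by 0.33, and the list median of 0.23 turned to -0.06 after scaling. Of 18 AP-1 and immediate-early genes Ier3 alone (5.56%) rose, by 1.36 ± 0.36, and Fos, Jun and Fosl1 differed by 0.11, -0.52 and -0.75. In polyamine metabolism Srm, spermidine synthase, rose from -0.33 to 0.34 in skin to 0.49 to 1.38 in papillomas, apart (1.08 ± 0.26, adjusted p = 0.0121). Oaz1 rose by 1.35 ± 0.40, Sms fell by 1.26 ± 0.31, and ornithine decarboxylase (Odc1), the enzyme that TPA classically induces, differed by 0.30. Id1, an inhibitor of differentiation factors, rose from -1.05 to 0.04 in skin to 0.42 to 2.02 in papillomas, apart (1.54 ± 0.28, adjusted p = 0.00116). Tgfb1 rose by 1.82 ± 0.44. The Notch target Nrarp rose by 2.13 ± 0.55, apart in 8 papillomas and 5 skins, and the ligand Jag1 differed by 1.40 (adjusted p = 0.0542). Wnt10b fell by 0.61 ± 0.19. Leukotriene A4 hydrolase (Lta4h) rose by 1.20 ± 0.31, while the cyclooxygenase Ptgs2 differed by -0.62.

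Of 26 glycolysis and hypoxia genes 6 (23.1%) rose and none fell, with a median of 0.17, and 1 passed within the lower range of the database numbers of the arrays. Pgam1 and Ldha, late enzymes of the pathway, rose by 1.60 ± 0.31 (adjusted p = 0.00212) and 1.34 ± 0.32 (adjusted p = 0.0106). Ldha was 0.61 in normal skin 1, with a skin median of -1.09, and ran from -0.91 to 1.48 in the papillomas. Pgk1, Pfkfb3, Tpi1 and Pfkl were the others, while Gapdh differed by -0.30. Of 44 oxidative phosphorylation genes 4 (9.09%) rose, or 7 passed in either direction after scaling. The 4 were Ndufa4, Cox5b, Atp5d and Atp5pb, with differences of 0.93 to 1.79 before scaling. Of 57 ribosomal protein genes 7 (12.3%) rose and 50 had a positive difference, with a median of 0.48. After scaling 3 passed and the median was 0.25, and within the lower range of database numbers 1 passed. Rpl41 rose by 1.20 ± 0.21 (adjusted p = 0.000803), and Rps2 did not overlap, at -0.45 to 0.32 in skin and 0.44 to 1.97 in papillomas. Many ribosomal protein genes have processed copies, so their probes are uncertain.

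In the glutathione, thioredoxin and xenobiotic list 3 of 42 (7.14%) rose and 3 fell, and 2 passed in either direction after scaling. The glutathione transferases Gsta1 and Gsta2 rose by 2.28 ± 0.58 and 1.87 ± 0.48. Gsta1 was 2.32 in normal skin 1 and at most -1.06 in the other skins, against 0.32 to 2.42 in papillomas, and its difference without normal skin 1 was 2.93. These paralogs are close in sequence and may not be told apart by their probes. Thioredoxin (Txn1) rose by 1.94 ± 0.48, and superoxide dismutases Sod1 and Sod3 and the epoxide hydrolase Ephx1 fell by 1.37, 1.73 and 0.81. Of 31 interferon and MHC class I genes 1 (3.23%) rose and 2 (6.45%) fell, against 3.94% and 3.61% of all probes. Ifit3 rose by 1.46 ± 0.29, and B2m, the light chain of class I, and Igtp fell by 1.14 ± 0.34 and 1.49 ± 0.47. The list median of -0.20 turned to 0.10 with the array set as a block.

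The largest changes outside those lists were of mixed kind. Rtkn2 was 3.20, 3.53, 2.98, 3.91 and 3.20 in normal skins 2 to 6 and 0.32 in normal skin 1. In the papillomas it ran from -2.05 through -1.05 to -0.35, below all skins (-3.85 ± 0.35, adjusted p = 4.42e-08). Its SD was 1.28 in skins and 0.51 in low-risk papillomas, against 0.29 in high-risk papillomas and 0.46 in carcinomas, all pooled in that SE. Blocking by array set left Rtkn2 called (-3.36, adjusted p = 0.0138), and the difference of papillomas 6, 7 and 10 from normal skin 2, the 1 skin of their set, was -4.04. The arrays of papilloma 1 disagreed, at 1.31 and -2.0. They also lay apart in other named genes, such as Rptn (1.86 and 6.35), Mup2 (-0.61 and -4.10), Tgm2 (-0.18 and -3.69) and Boll (-0.94 and -8.71). In others they lay close, such as Chac2 (0.56 and 0.40) and Sprr2i (2.34 and 2.17). The urinary protein gene Mup2 ran from 0.35 to 2.13 in skin and from -3.64 to -0.62 in papillomas, apart (-3.20 ± 0.43, adjusted p = 5.98e-05). Tissue transglutaminase (Tgm2) ran from 0.63 to 1.74 and from -3.43 to 0.44, also apart (-2.69 ± 0.50, adjusted p = 0.00149). Chac2, a glutathione-degrading enzyme, and the transcription factor subunit Taf12 fell by 3.05 ± 0.40 and 2.74 ± 0.47, with normal skin 1 at 0.59 and -0.57 and the other skins at 3.25 or above. Hsd11b2, which inactivates glucocorticoids, fell by 2.95 ± 0.71. Boll, Phyhd1, Ccdc181, Ankrd36 and Umod were the other large falls, with differences of -3.32 to -2.55. Among rises, the kinase gene Nek4 ran from -0.35 to 1.48 in skin and from 2.99 to 5.08 in papillomas, apart (3.71 ± 0.59, adjusted p = 0.000335). The blood cell GTPase Rhoh rose by 3.47 ± 0.56, the flavin monooxygenase Fmo5 by 3.54 ± 0.70 (0.45 in its other probe), the zinc finger gene Zfp932 by 3.09 ± 0.61 and the odorant receptor pseudogene Olfr29-ps1 by 4.02 ± 0.67.

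Besides Rtkn2, S100a9 and a probe without a symbol, 4 genes passed with the array set as a block; they were chosen after their values were seen. Sox5, a transcription factor, ran from 0.32 to 2.16 in 5 skins and from -3.25 to -0.85 in 6 papillomas (-3.19 ± 0.44, adjusted p = 0.000112; -3.34 with the block). Emx1 ran from 1.98 to 3.41 in 5 skins and from -0.11 to 0.80 in 8 papillomas (-2.74 ± 0.25, adjusted p = 9.30e-07; -2.74 with the block). Derl2 and Med17 fell by 2.13 ± 0.36 and 2.56 ± 0.34, and by 3.28 and 3.02 with the block. The groups did not overlap in these 4 genes, narrowly so in Derl2, where the highest papilloma and the lowest skin both stood at 1.18.

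Across the fits, the direction held more often than the call. The named genes were chosen by their values on the same arrays, so a kept direction was largely fixed by that choice. Of 100 named genes past the threshold, 97 kept the call and 100 the direction without normal skin 1. Within the lower range of the database numbers of the arrays, which held 4 skins and 3 papillomas, 51 kept the call and 99 the direction. No named gene was reversed there, and 1095 probes were called in all. Those skins were all of 1 array set and those papillomas all of another, so this fit cannot tell array set from group. Within the higher range, with 2 skins and 6 papillomas, 1 kept the call. With the array set as a block 2 kept the call and 100 the direction. When each replicate was left out in turn, 59 of the 100 kept the call every time, and 722, 932, 852 and 799 probes were called in all without normal skins 3, 4, 5 and 6.

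**Figure D5:**
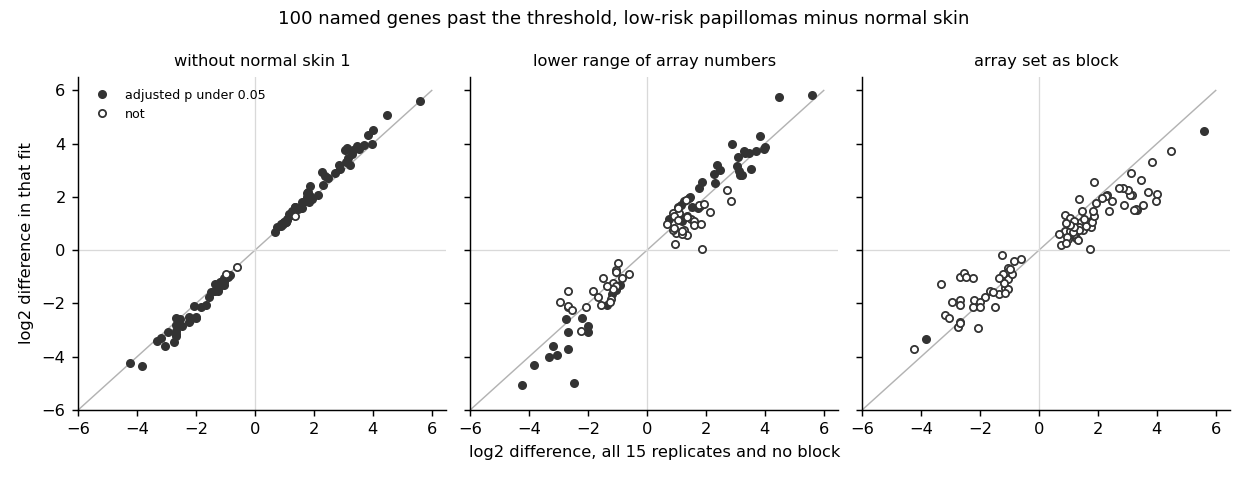
Log2 difference of low-risk papillomas minus normal skin for 100 named genes past the threshold, with all replicates and no block on the horizontal axis and in 3 other fits on the vertical axis; filled points passed in that fit and the diagonal marks equal differences. Points lie along the diagonal without normal skin 1, and nearer to 0 with the array set as a block, where 2 points are filled.

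Among the 114 named genes, 11 differences between low-risk papillomas and the other tumour groups passed the threshold in limma. A contrast that did not pass does not show that the tumour groups were alike. Over all probes, 126 (0.667%) differed between low-risk and high-risk papillomas and 212 (1.12%) between low-risk papillomas and carcinomas in the same fit. The arrays were not scaled to the same spread in that fit, and array set was not part of it. The SD over the probes of an array was 1.04 to 1.95 in low-risk papillomas, 0.454 to 1.72 in high-risk papillomas and 0.561 to 1.05 in carcinomas. The named genes were chosen with the same low-risk values that enter these contrasts, which favours a difference. Nek4 had a mean of 4.07 in low-risk papillomas against 1.23 in the high-risk ones and 1.36 in carcinomas, and it differed from both (2.84 ± 0.51 and 2.71 ± 0.59, adjusted p = 0.0108 and 0.0202). Hamp had means of 4.14, 2.07 and 1.51 in the same order and differed from both as well (adjusted p = 0.0459 and 0.0208), as did Sod1, lowest in low-risk papillomas at -2.55 against -1.43 and -1.29 (adjusted p = 0.0447 and 0.0387). Cd2 was 1.67 ± 0.40 higher than in high-risk papillomas (adjusted p = 0.0400). Rptn had a mean of 4.18 in low-risk papillomas and 0.72 in carcinomas (3.46 ± 0.63, adjusted p = 0.00914), and 4.11 in high-risk papillomas. Ppbp was lower than in carcinomas (-2.67 ± 0.29, adjusted p = 5.17e-05), as were Mup2 (-1.81) and Igtp (-1.84; adjusted p = 0.0328 and 0.0461). S100a8 and Arg1 differed from high-risk papillomas by 0.44 ± 0.62 and 0.21 ± 0.54 (adjusted p = 0.737 and 0.871), which does not show that they were alike.

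The papillomas differed among themselves. The correlation of 2 papillomas across probes, which are not independent replicates, was 0.209 to 0.790 with a median of 0.539. Between papillomas and skins it was 0.259 to 0.684 with a median of 0.498, and between skins 0.428 to 0.876. Scored on genes called without it, papilloma 5 was nearer to the papilloma mean than to the skin mean in 92.1% of genes, and papillomas 2 and 6 in 45.7% and 49.9%. Papilloma 8 had the highest means of the activated epidermis, cornified envelope and suprabasal lists (4.31, 4.19 and 3.64), the widest spread over its probes (SD 1.95) and 20.8% empty probes. Papilloma 9 had the highest mean of the neutrophil list (1.62) and 26.0% empty probes. The part of spread and empty probes in these ranks was not tested.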

How the data were processed

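RNA of whole skin tumours and normal skin was measured on 2-colour oligonucleotide arrays against a common reference RNA. The authors deposited 1 log2 ratio per probe and array; how the arrays were background-corrected and normalized is not given in the sources used here, and the log base and direction were inferred from the values and the dyes, so they are likely rather than stated. The sign was turned where the sample was labelled with Cy3, each array was centred on its median, and papilloma 1 and its dye swap were averaged. Values were present on 16286 to 21435 of 21997 probes per papilloma array and 18661 to 20804 per skin array, and an empty probe was left missing. Of the probes, 16076 had 1 gene symbol, 288 several and 5633 none in the platform annotation, which can be old.

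A probe was tested if 70% of the replicates, and no fewer than 3 in any group, had a value. limma 3.58.1 (R 4.3.3) fitted the 4 labelled groups (31 replicates) in 1 model, with Benjamini-Hochberg adjustment over 18904 probes and a threshold of 0.05. Of several probes of a gene, the one with values in most replicates was used, and named genes whose probes disagree are pointed out. Named genes were the 12 largest rises and 12 largest falls past the threshold that were measured in all 15 replicates and had an established symbol, and from each of 35 gene lists up to 4 members past the threshold by smallest p, or the 2 of smallest p where fewer than 2 passed. Other list members are named as examples, chosen after their values were seen. The samples compared and the lists were chosen with earlier results of these data known. Replicates of the same number were not paired: their deviations had a median r of -0.0859 over 5 pairs, against 0.00645 over 49 other pairs. Tested on simulated data of this comparison (18904 probes), the fit recovered 80% of 100 differences of log2 size 2 and 26% of 100 of size 1, with 4 false calls. Whether that recovery and the 4 false calls hold under the unequal spread and the array sets of the real arrays was not tested. Alternatives covered normalization, probe filter, blocks, array weights and left-out replicates. The 10 arrays of the second array design have no group in their labels and were not used here.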

Additional observations from a re-analysis of the deposited data

Results flagged for a closer look

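Sample values far from the rest of their group were looked for in 228 combinations of a named gene and 1 of the 2 groups, and 26 were found; chance gives such a value in about 1 in 20 groups. Normal skin 1 held 16 of them. It was high among the skins in S100a8 (3.71), Olfr29-ps1 (2.52), Rhoh (4.41), Arg1 (4.27), Lce3c (4.37), Gsta1 (2.32), Gsta2 (2.01), Ndufa4 (1.70), Ldha (0.61), Ier3 (0.81) and Nr4a1 (1.04). It was low among them in Rtkn2 (0.32), Chac2 (0.59), Taf12 (-0.57), Apoe (-1.52) and Mitf (-1.08). Normal skin 2 stood apart in Elovl5 (1.23) and normal skin 4 in Cnp (-1.09). Among papillomas, papilloma 9 stood apart in Chac2 (-1.42), Lama3 (-3.27) and Fbln2 (3.49), papilloma 8 in Ankrd36 (-5.29), Hbegf (4.05) and Krt8 (-8.58), papilloma 1 in Tpsb2 (1.09) and papilloma 6 in Cox5b (-1.44).

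Differences from the other tumour groups passed the threshold in limma 11 times among the named genes, each a direct contrast of tumour groups, adjusted over all probes. Against high-risk papillomas the low-risk papillomas differed in Nek4 (2.84), Cd2 (1.67), Hamp (2.07) and Sod1 (-1.12). Against carcinomas they differed in Nek4 (2.71), Hamp (2.63), Rptn (3.46), Mup2 (-1.81), Ppbp (-2.67), Igtp (-1.84) and Sod1 (-1.26). Neither array set nor scaling of the arrays was part of that fit, and their part in these differences was not tested.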

How the results depend on the processing

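The count of 1427 called genes, 744 higher and 683 lower, stayed within 1.5 times under no centring (1404), quantile normalization (1751), scale normalization (1417), robust variances (1411), a random block for the shared animal code (1437), the range of database numbers as a block (1282) and without normal skin 1 (1580). It was 604 (278 higher, 326 lower) over probes measured in all replicates, where fewer probes were tested. With only the 2 groups in the fit it was 602 (366, 236), or 813 (452, 361) when normal skin 1 was left out too. In those 2 fits the spread rested on fewer replicates, without the high-risk papillomas and carcinomas. Array weights gave 4150 (2204, 1946). The array set as a block gave 7 (2, 5), and 107 (44, 63) without normal skin 1; within the 1 set that held both groups it was 67 (9, 58), with 1 skin that was assumed to vary like the tumours of that set. Within the higher range of database numbers 8 were called in limma, 0 higher and 8 lower, with 1660 at an unadjusted p under 0.05. The cause of these shifts was not tested. With the replicate number as a block, although the numbers do not pair the samples, 963 were called, 492 higher and 471 lower. Leaving out 1 replicate at a time gave 722 to 1979 called, 353 to 1032 higher and 369 to 1010 lower, with the low end without normal skin 3, 4, 5 or 6. Among named genes past or near the threshold, Lipe changed sign to -0.0915 in the mean of its probes and Igkc to 0.0209 within the higher range. Of the 100 named genes past the threshold, H2-DMb1, Oaz1 and Wnt10b lost the call without normal skin 1. The number of arrays, rather than a known depth, limits the precision. Alternatives added after seeing the data were those that combine normal skin 1 with another change.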
